A study of Mus musculus with 18 samples.

Results

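The C1q/TNF-related proteins are secreted relatives of adiponectin that share its plan, a collagen-like stem followed by a globular C1q domain, and that assemble as trimers and larger complexes before they leave the cell. Adiponectin, encoded by *Adipoq*, is the best-known hormone of mature fat cells and signals through the receptors encoded by *Adipor1* and *Adipor2*, while *Cdh13* encodes T-cadherin, which binds its larger complexes at the cell surface. The relatives are made by many stromal tissues, and *C1qtnf3* (CTRP3, also called cartducin) is known from developing cartilage and from fat. Here 9 of these genes, *C1qtnf1*, *C1qtnf2*, *C1qtnf3*, *C1qtnf4*, *C1qtnf5*, *C1qtnf6*, *C1qtnf7*, *C1qtnf12* and *Adipoq*, were followed among the 24100 genes listed in each of the count tables. They were found by matching gene identifiers to symbols. *C1qtnf3* was chosen by its measured polyA log2 fold change, among the strongest rises shared by both *Atrx* KO clones, and the other 8 because they are related to it, so its polyA difference between KO and WT is given as a description without a test.

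The cells were C3H/10T1/2, a mouse mesenchymal progenitor line. *Atrx* WT cells had received the Cas9 vector without a guide, and the KO cells were 1 clone for the guide sg5 (clone G7) and 1 clone for the guide sg6 (clone B10). The 18 libraries were 9 of polyA RNA and 9 of rRNA-depleted RNA, with 3 libraries for each of WT, sg5 and sg6 in each kind. The labels do not say whether the 3 libraries of a line came from separate cultures, so every p-value measures the spread between these libraries, which may be technical. Each KO line is 1 clone, and the loss of *Atrx* and other traits of that clone cannot be told apart. WT is likewise 1 control line, and its own traits cannot be told apart from changes shared by both clones.

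Library totals ran from 27544833 to 80772108 counts in WT, from 161036799 to 235346363 in sg5 and from 58918732 to 71896907 in sg6 for polyA RNA, and from 20135336 to 33187136 for rRNA-depleted RNA. Levels are given as CPM, counts scaled to a common library size after TMM scaling within a kind, and the kinds were counted and scaled separately. A gene was called when its log2 fold change lay beyond 1 and edgeR's quasi-likelihood test gave an adjusted p (Benjamini-Hochberg) below 0.05, and n = 3 libraries stands behind each mean and SD. *Atrx* itself had 206 ± 19.4 CPM in WT, 78.9 ± 25.3 CPM in sg5 and 83.2 ± 12.2 CPM in sg6 in the rRNA-depleted libraries, with log2 fold changes of -1.39 and -1.31. The polyA libraries had the same order, and every KO library lay below every WT library in both kinds. The mesenchymal label was checked on *Col1a2* and *Vim*, picked from 9 listed mesenchymal markers, which had at least 5897 and 4506 CPM in every polyA library. Not all listed markers were high. The stromal surface marker *Thy1* was near 0 in WT and sg5, at most 1.1 CPM, and had 119 to 154 CPM in sg6. Another, *Nt5e*, was too low to be tested in rRNA-depleted RNA.

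In the GENCODE annotation of GRCm38 (mm10), *C1qtnf3* lies on the plus strand of chromosome 15 from 10952332 to 10980150. *C1qtnf6* lies on the same chromosome from 78523346 to 78531416 on the minus strand, and the other members lie on chromosomes 2, 4, 5, 9, 11 and 16. No word of 31 bases in the transcripts of *C1qtnf3* occurs in another annotated gene, and no such word is shared between members, so reads were not divided among these relatives by near-identical sequence. *C1qtnf5* shares sequence with another gene. It occupies chromosome 9 from 44107245 to 44109187 on the plus strand inside the transcription unit of *Mfrp*, a membrane frizzled-related gene, and 90.2% of its words of 31 bases also occur in transcripts of *Mfrp*. In the rRNA-depleted table the counts of *Mfrp* and *C1qtnf5* were identical in 9 of 9 libraries, so there the 2 genes cannot be told apart.

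Start-site sequences of 6 members are in the RefSeq promoter set for GRCm38.p6, though that listed under *C1qtnf5* is the start of *Mfrp*, each 300 bases long with 250 bases before the start site. That of *C1qtnf3* is shown because this gene moved furthest, that of *C1qtnf6* because it had the highest level of the family in WT, and that of *Adipoq* because it is the hormone that names the group. Capitals mark TATAAA and CANNTG in *C1qtnf3*, CCAAT and GGGCGG in *C1qtnf6*, and CCAAT and CANNTG in *Adipoq*, searched on both strands, and none of the marked matches overlap.
C1qtnf3, chr15:10952082-10952381, plus strand: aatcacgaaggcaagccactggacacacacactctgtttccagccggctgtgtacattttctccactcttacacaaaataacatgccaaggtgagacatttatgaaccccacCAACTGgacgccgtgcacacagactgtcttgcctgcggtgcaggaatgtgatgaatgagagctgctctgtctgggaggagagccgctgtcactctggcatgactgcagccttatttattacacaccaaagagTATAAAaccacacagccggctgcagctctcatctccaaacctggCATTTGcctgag
C1qtnf6, chr15:78529602-78529901, minus strand: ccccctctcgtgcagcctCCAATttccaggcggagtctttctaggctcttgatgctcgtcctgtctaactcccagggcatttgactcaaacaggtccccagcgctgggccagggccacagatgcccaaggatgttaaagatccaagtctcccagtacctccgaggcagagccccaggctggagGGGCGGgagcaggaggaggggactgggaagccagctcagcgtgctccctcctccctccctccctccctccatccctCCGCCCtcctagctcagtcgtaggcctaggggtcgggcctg
Adipoq, chr16:23146286-23146585, plus strand: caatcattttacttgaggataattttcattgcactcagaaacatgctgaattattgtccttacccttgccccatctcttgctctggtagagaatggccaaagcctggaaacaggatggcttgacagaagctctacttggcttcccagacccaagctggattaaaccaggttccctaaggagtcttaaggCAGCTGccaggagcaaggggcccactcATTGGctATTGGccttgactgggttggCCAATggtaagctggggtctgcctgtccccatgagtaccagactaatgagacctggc
The *C1qtnf3* window was the only one of the 6 with TATAAA, a motif held by 13.6% of 32851 promoter windows of this length. CCAAT, held by 37.4% of them, occurred 3 times in the *Adipoq* window and was absent from that of *C1qtnf3*, and GGGCGG, held by 35.7%, occurred 2 times in that of *C1qtnf6*. CANNTG is in 72.3% of windows. The *Adipoq* window holds 0 CG pairs, against 7 in that of *C1qtnf3*, 10 in that of *C1qtnf6* and a median of 7 over all windows. These are descriptions of the sequence, and no readout in these libraries tests them.

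*C1qtnf3* went from a few CPM in WT to about 100 CPM or more in both clones. In the polyA libraries, replicates 1, 2 and 3 had 3.74, 1.94 and 2.47 CPM in WT, 364, 117 and 91.9 CPM in sg5, and 333, 117 and 130 CPM in sg6. The lowest sg5 library was 24.6 times, and the lowest sg6 library 31.3 times, the highest WT library. The fitted log2 fold changes were 6.19 in sg5 and 6.21 in sg6, each with a standard error of 0.72. These values include those that chose the gene.

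The rRNA-depleted libraries were not used in that choice. There *C1qtnf3* had 6.39, 2.34 and 4.04 CPM in WT, 703, 776 and 671 CPM in sg5, and 961, 277 and 371 CPM in sg6. Every KO library lay above every WT library, by at least 105 times in sg5 and 43.3 times in sg6. More cells with the transcript and more transcript per cell cannot be told apart in bulk RNA. The log2 fold change was 7.40 with a standard error of 0.51 in sg5 (edgeR quasi-likelihood adjusted p = 2.86e-06) and 6.98 with a standard error of 0.50 in sg6 (edgeR quasi-likelihood adjusted p = 3.56e-06). Among 13303 genes tested, its rise held rank 6 from the top in sg5 and rank 11 in sg6, and in the polyA libraries ranks 11 and 19 of 15480. In rRNA-depleted RNA the log2 difference of sg5 minus sg6 was 0.42 with a standard error of 0.38 and was not called (edgeR quasi-likelihood adjusted p = 0.844). In polyA RNA it was -0.02 with a standard error of 0.55. That value is a description without a test, because a polyA rise shared by both clones chose the gene.

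**Figure D1:**
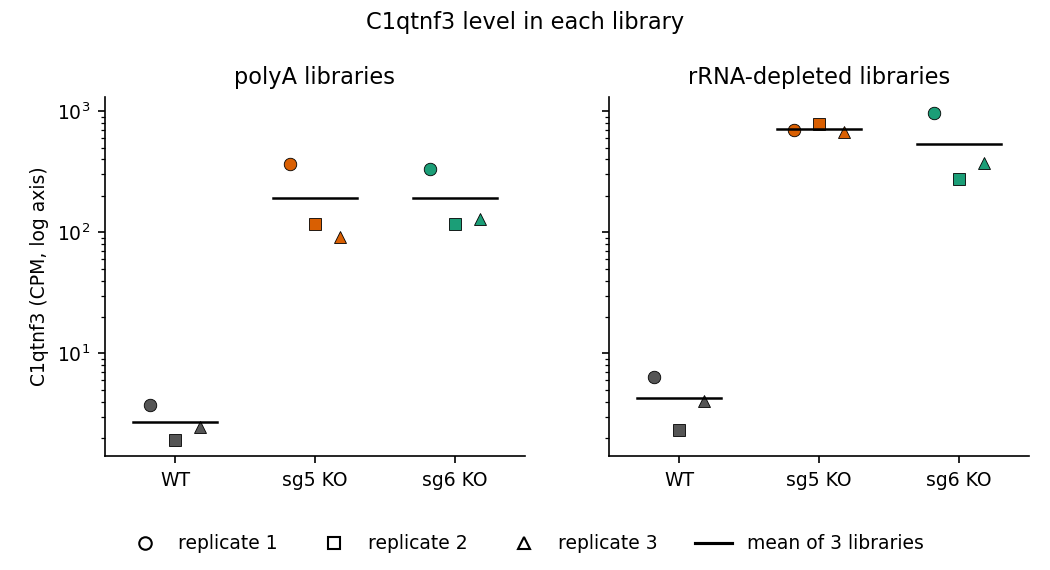
*C1qtnf3* level in CPM (log axis) in each of the 18 libraries, by line on the horizontal axis, with a symbol for each replicate number and a bar at the mean of 3 libraries. WT libraries sit between 1.94 and 6.39 CPM and KO libraries between 91.9 and 961 CPM, and replicate 1 is the highest library of its line in 5 of the 6 groups.

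The spread of *C1qtnf3* between libraries of one line was uneven. The highest library was 3.97 times the lowest in sg5 and 2.84 times in sg6 for polyA RNA, and 1.16 times in sg5 and 3.47 times in sg6 for rRNA-depleted RNA. On the log2 scale its SD over 3 libraries was 1.06 in polyA sg5, where the median gene had 0.13 and 99.3% of 15480 genes had a smaller SD. In polyA sg6 the SD was 0.83, larger than that of 97.1% of genes, and in rRNA-depleted sg6 it was 0.94, larger than that of 96.8% of 13303 genes. In rRNA-depleted sg5 the SD was 0.11, below the median gene at 0.24. WT had 0.47 in polyA RNA, larger than that of 83.7% of genes, and 0.71 in rRNA-depleted RNA, larger than that of 97.1%. Among genes of like level the polyA WT value was larger than that of 78.2%.

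Replicate 1 was the highest library for *C1qtnf3* in all 3 lines of the polyA kind and in WT and sg6 of the rRNA-depleted kind, where sg5 had replicate 2 highest. Over all genes, 11.6% of the polyA set had replicate 1 highest in all 3 lines. Without replicate 1 of every line, the log2 fold changes of *C1qtnf3* in the rRNA-depleted libraries were 7.84 and 6.67, and sg5 then lay above sg6 by 1.17 (edgeR quasi-likelihood adjusted p = 0.0411). In the fit of all 9 libraries that difference was not called. Leaving out replicate 1 was chosen after seeing the data. It takes away the highest sg6 library, which by itself lowers sg6, so nothing is concluded from this difference.

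**Figure D2:**
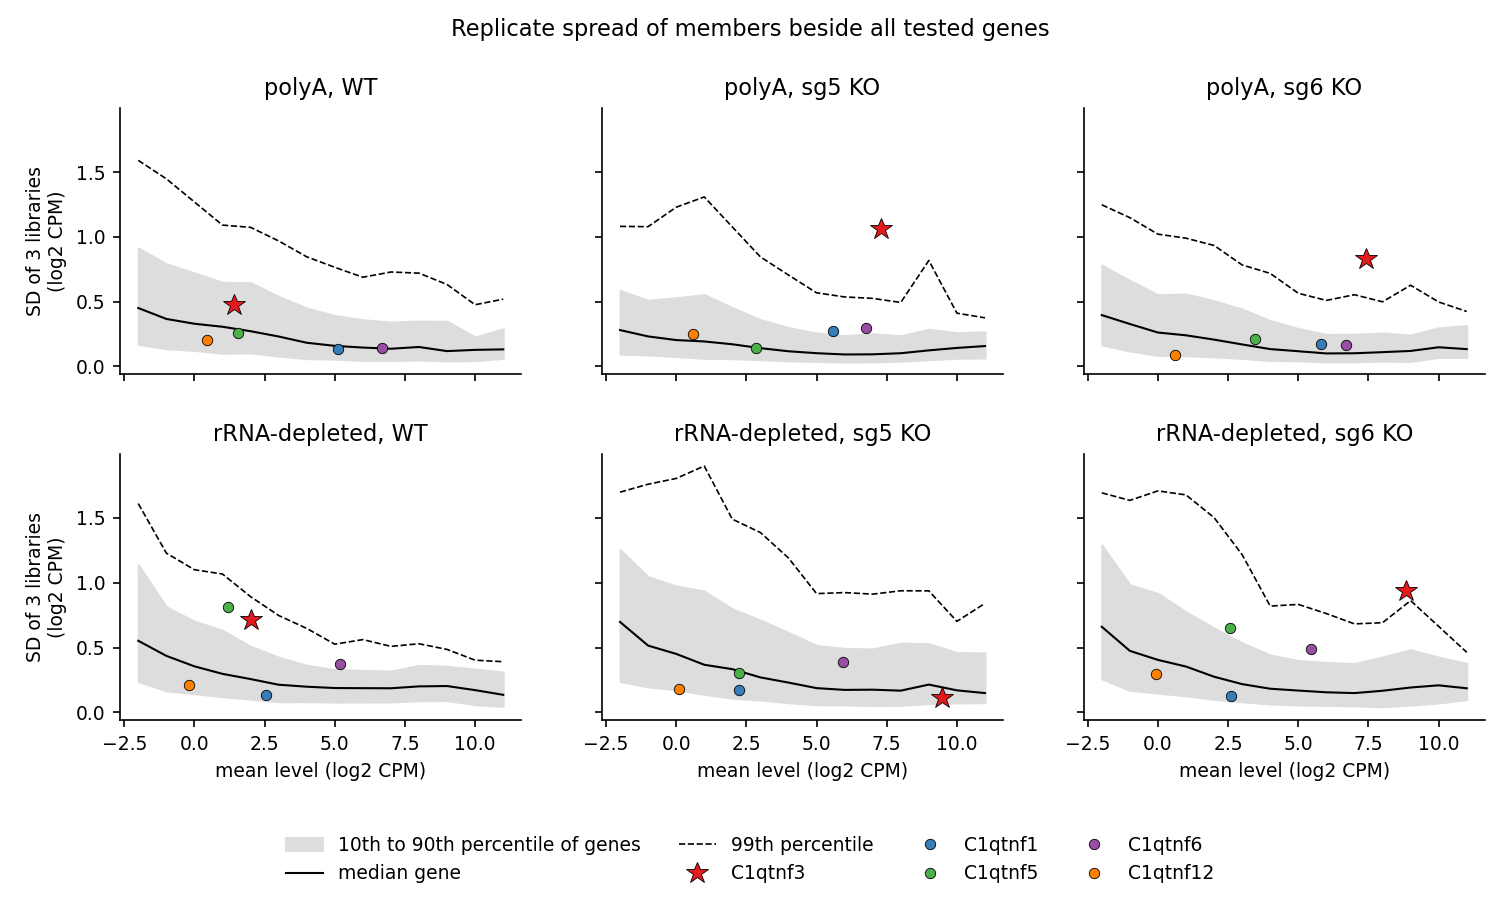
SD of 3 libraries against the mean level, both in log2 CPM, for 5 members (points, with *C1qtnf3* as a star) in each line and kind of library, over the 10th to 90th percentile (grey), median (line) and 99th percentile (dashed) of all tested genes at that level. *Adipoq*, with an SD of 1.61 in polyA sg5, is not plotted. *C1qtnf3* lies above the other 4 plotted members in polyA sg5 (SD 1.06) and sg6 (0.83) and in rRNA-depleted sg6 (0.94), and below the median gene in rRNA-depleted sg5 (0.11).

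The relatives that were tested had smaller log2 fold changes than *C1qtnf3* in each clone and kind. The choice of *C1qtnf3* by its large polyA rise favoured that order, so nothing is concluded from it. In the polyA libraries 6 of the 9 members passed the filter on low counts, and 2 of them, *C1qtnf3* and *C1qtnf5*, were called higher in each clone, where 3.18% of all genes tested were called higher and 6.96% lower in sg5, and 3.64% and 7.54% in sg6. Nothing is read from this count, because that contrast chose *C1qtnf3*. In the rRNA-depleted libraries 5 members passed the filter, and 1 of them, *C1qtnf3*, was called higher in each clone, beside 1.19% and 0.84% of the 56086 genes and transposable-element loci tested, and 3.04% and 2.16% of the genes alone. The other 4, *C1qtnf1*, *C1qtnf5*, *C1qtnf6* and *C1qtnf12*, were not called in that kind without a replicate block, and with it 2 members were called in sg6, *C1qtnf3* and *C1qtnf5*. The median log2 fold change of the tested members there, *C1qtnf3* included, was 0.76 in sg5 and 0.30 in sg6, against 0.08 and 0.04 over all genes tested.

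*C1qtnf5* encodes a short-chain member known from the pigment epithelium of the eye. In polyA RNA it had 2.58, 3.55 and 2.60 CPM in WT, 7.95, 6.52 and 7.21 CPM in sg5, and 13.0, 9.80 and 10.6 CPM in sg6. All 3 groups were separate, with sg6 highest, and the fitted log2 fold changes were 1.30 in sg5 (SE 0.17) and 1.92 in sg6 (SE 0.18). The difference of sg5 minus sg6 was -0.63 with a standard error of 0.17 and was not called (edgeR quasi-likelihood adjusted p = 0.0721).

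In rRNA-depleted RNA the *C1qtnf5* count, which equals that of *Mfrp*, gave 4.25, 1.38 and 1.87 CPM in WT, 5.73, 4.82 and 3.75 CPM in sg5, and 9.72, 4.19 and 4.76 CPM in sg6. The highest WT library, replicate 1, lay above the lowest KO library in each clone, so the groups overlapped. The log2 fold changes were 0.94 with a standard error of 0.41 in sg5 (edgeR quasi-likelihood adjusted p = 0.265) and 1.33 with a standard error of 0.41 in sg6 (edgeR quasi-likelihood adjusted p = 0.134). Same-numbered WT and sg6 libraries of this kind deviated together, with Pearson's r of 0.114 to 0.544. WT replicate 3, however, correlated better with sg6 replicate 1 (r = 0.252). A fit that blocks on replicate number called the *C1qtnf5* value in sg6, at 1.35 (edgeR quasi-likelihood adjusted p = 0.00826), beside 2.71% of genes called higher in that fit. Without WT replicate 1 the value in sg6 was 1.98 (edgeR quasi-likelihood adjusted p = 0.0256), which passes, and without replicate 1 of every line those of both clones passed, at 1.41 and 1.47 (edgeR quasi-likelihood adjusted p = 0.0228 and 0.0222). Of 9 fits that each left out 1 library, 1 called it in sg6, that without the highest WT library. The fit without replicate 1 of every line was chosen after seeing the data. Nothing is concluded from these calls. In polyA RNA, where the counts of the 2 genes were estimated apart, *Mfrp* had 0 counts in all 3 sg6 libraries, and the sum of both had 3.52 ± 0.149 CPM in WT, 7.52 ± 0.833 CPM in sg5 and 11.1 ± 1.66 CPM in sg6.

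*C1qtnf1* encodes CTRP1, a vascular and stromal member. In polyA RNA it had 31.8, 38.3 and 34.3 CPM in WT, 38.6, 51.6 and 54.8 CPM in sg5, and 49.1, 56.0 and 62.6 CPM in sg6. Every KO library lay above every WT library, by a margin of less than 1 CPM for the lowest sg5 library, and the log2 fold changes of 0.47 in sg5 (SE 0.15) and 0.68 in sg6 (SE 0.15) stayed under the threshold of 1. In rRNA-depleted RNA it had 5.38, 6.37 and 5.43 CPM in WT, 4.25, 5.35 and 4.46 CPM in sg5, and 6.50, 5.48 and 6.23 CPM in sg6, so that in sg5 every library lay below every WT library. The log2 fold changes there were -0.29 with a standard error of 0.21 in sg5 (edgeR quasi-likelihood adjusted p = 0.530) and 0.08 with a standard error of 0.21 in sg6 (edgeR quasi-likelihood adjusted p = 0.932). The kinds thus gave opposite signs for sg5, and the difference between kinds was not tested.

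*C1qtnf6* encodes CTRP6, a stromal member that binds and restrains complement. Its polyA level was 95.9, 96.1 and 114 CPM in WT, 137, 93.5 and 99.7 CPM in sg5, and 117, 93.0 and 102 CPM in sg6, and the groups overlapped throughout. In rRNA-depleted RNA it had 45.1, 27.4 and 39.2 CPM in WT, 80.1, 61.6 and 47.0 CPM in sg5, and 62.8, 32.0 and 42.9 CPM in sg6. The sg5 libraries lay above WT there, but the log2 fold change of 0.76 with a standard error of 0.26 was not called (edgeR quasi-likelihood adjusted p = 0.143), nor was that of 0.30 in sg6 (edgeR quasi-likelihood adjusted p = 0.735).

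*C1qtnf12* encodes adipolin, a relative linked to insulin sensitivity. It ran from 1.15 to 1.79 CPM over the 9 polyA libraries and from 0.669 to 1.11 CPM over the 9 rRNA-depleted libraries, with the 3 lines overlapping in each kind. Its largest fitted log2 fold change in size was 0.30 with a standard error of 0.33, in rRNA-depleted sg5 (edgeR quasi-likelihood adjusted p = 0.717).

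The remaining relatives were at or near 0. *C1qtnf7* had 0 counts in all 18 libraries, and a count of 0 allows up to 3 counts, which is 0.0131 to 0.105 CPM across polyA libraries and 0.0802 to 0.161 CPM across rRNA-depleted libraries. *C1qtnf2* had at most 1 count in any polyA library and at most 7 in any rRNA-depleted library. *C1qtnf4* had at most 1 and at most 4. No fold change is given for these 3 genes, and floors cover counting error only.

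The level of *Adipoq* was highest in sg5, above all in its replicate 1. In polyA RNA replicates 1, 2 and 3 had 2, 7 and 0 counts in WT, 235, 47 and 31 in sg5, and 11, 3 and 3 in sg6, which is 1.48, 0.205 and 0.191 CPM in sg5 against at most 0.0801 in WT and 0.163 in sg6. In the rRNA-depleted libraries the counts were 1, 0 and 2 in WT, 37, 2 and 2 in sg5, and 3, 0 and 1 in sg6. Replicate 1 of sg5 was therefore the highest *Adipoq* library in each kind, at 1.48 and 1.37 CPM, and the next sg5 library was at 0.205 and 0.107 CPM.

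In polyA RNA the 3 sg5 libraries lay above all others for *Adipoq*. The fitted log2 fold change was 3.48 with a standard error of 1.16 in sg5 and 0.72 with a standard error of 1.52 in sg6, and neither was called. Without sg5 replicate 1 the value in sg5 was 1.83, again without a call. The sg5 libraries were also the deepest, and after thinning all polyA libraries to the smallest total *Adipoq* had 39, 5 and 5 counts in sg5, 2, 3 and 0 in WT and 4, 0 and 2 in sg6. The difference of sg5 minus sg6 was 2.76 with a standard error of 1.01 (edgeR quasi-likelihood adjusted p = 0.191), and the fit that blocks on replicate number called it, at 2.64 (edgeR quasi-likelihood adjusted p = 0.0240). *Adipoq* did not pass the filter in the rRNA-depleted libraries and was not tested there.

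**Figure D3:**
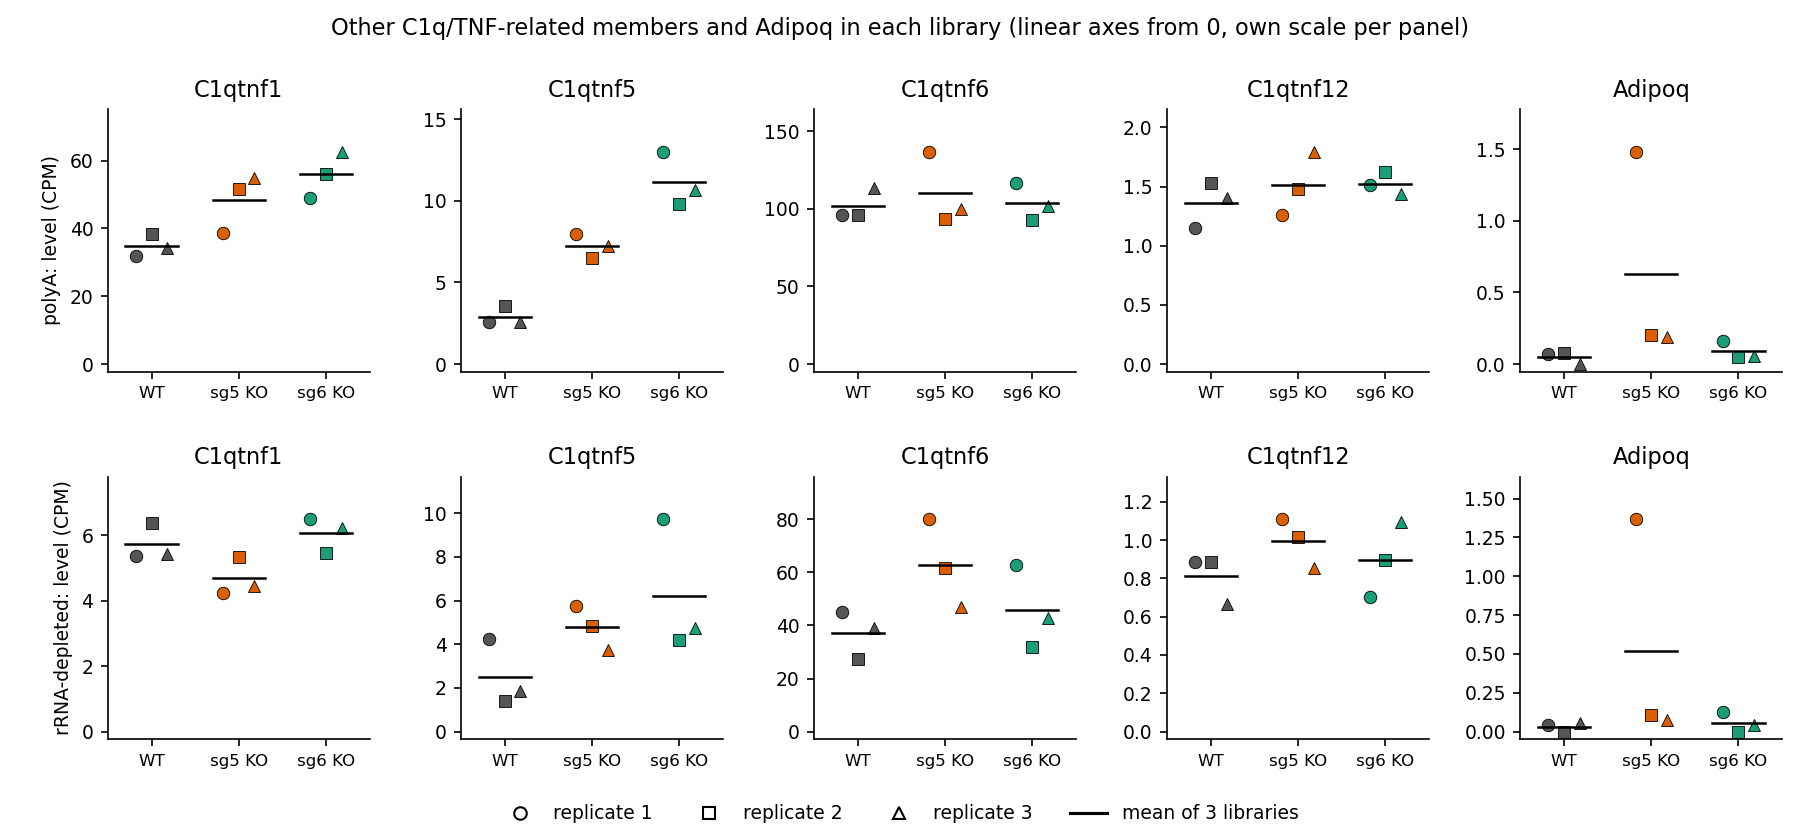
Level in CPM of *C1qtnf1*, *C1qtnf5*, *C1qtnf6*, *C1qtnf12* and *Adipoq* in each library (linear axes from 0, each panel with its own scale), by line, with a symbol for each replicate number and a bar at the mean of 3 libraries. *C1qtnf5* separates the lines in polyA RNA but not in rRNA-depleted RNA, and the sg5 mean of *Adipoq* is set by replicate 1, at 1.48 and 1.37 CPM.

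Without the block, no member was called between the clones in either kind by edgeR, where sg5 exceeded sg6 in 1.36% and fell below it in 1.25% of polyA genes, and in 0.207% and 0.259% of rRNA-depleted features. At an unadjusted p below 0.05 there were 2 polyA members, *C1qtnf5* and *Adipoq*, and 0 rRNA-depleted members, and DESeq2 called 0 in each kind. Same-numbered libraries of the clones deviated together in both kinds. In rRNA-depleted RNA, however, sg5 replicate 3 correlated better with sg6 replicate 2 (r = 0.555) than with sg6 replicate 3 (r = 0.174). With the replicate number as a block 1 polyA member, *Adipoq*, was called, beside 1.74% of genes called higher in sg5, and 0 rRNA-depleted members.

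**Figure D4:**
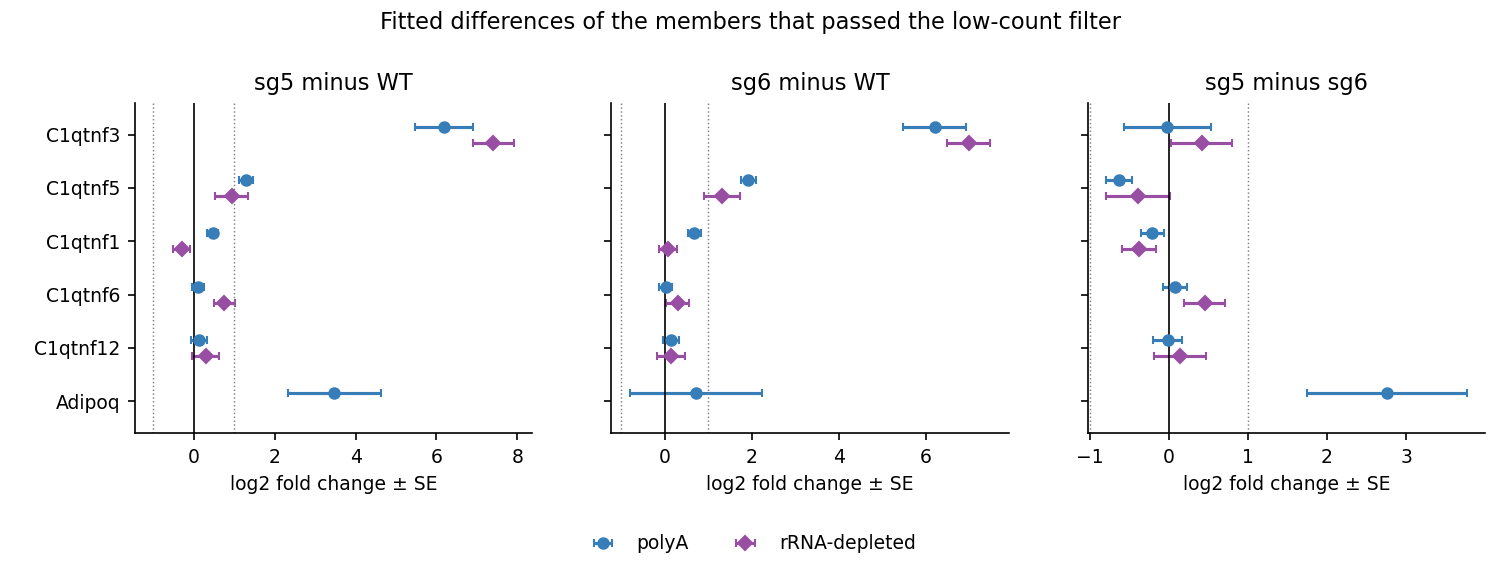
Fitted log2 fold change with its standard error for the members that passed the filter, in polyA (circles) and rRNA-depleted (diamonds) libraries, for sg5 minus WT, sg6 minus WT and sg5 minus sg6. Dotted lines mark a log2 fold change of 1 in either direction. *C1qtnf3* lies at 6.19 to 7.40 in the comparisons with WT, and the differences between clones lie near 0 except that of *Adipoq*, at 2.76 with a standard error of 1.01.

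Levels of different genes can be set side by side only per length, here as CPM per kb of annotated exon sequence. In WT polyA RNA *C1qtnf6* led with 37.7 CPM per kb, followed by *C1qtnf1* with 11.1, *C1qtnf5* with 1.83, *C1qtnf3* with 1.06 and *C1qtnf12* with 0.997, and the libraries of the last 2 overlapped. In both clones *C1qtnf3* had the highest mean of the family, at 74.8 CPM per kb in sg5 and 75.5 in sg6, against 40.7 and 38.4 for *C1qtnf6*. The sg5 libraries of these 2 genes overlapped, since the lowest of *C1qtnf3* was 35.9 and the highest of *C1qtnf6* 50.6 CPM per kb. In rRNA-depleted RNA the gap was wider, with 280 and 210 CPM per kb for *C1qtnf3* against 23.3 and 17.0 for *C1qtnf6*. The choice of *C1qtnf3* by its polyA rise favoured its rank in the polyA libraries of the clones, so nothing is concluded from that rank.

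Deviations of each library from the mean of its line show whether relatives varied with *C1qtnf3* between libraries of the same cells. Over the 9 libraries of a kind, which come from 3 lines and share their depth and scaling across genes, Pearson's r with *C1qtnf3* was 0.80 in polyA and 0.84 in rRNA-depleted RNA for *C1qtnf6*. It was 0.37 and 0.91 for *C1qtnf5*, -0.95 and 0.09 for *C1qtnf1*, and -0.74 and -0.44 for *C1qtnf12*. *Adipoq* had 0.76 in polyA RNA. These are descriptions over libraries of only 3 lines and carry no test.

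By the smaller r of the kinds, the 5 genes whose deviations were most like those of *C1qtnf3* among 10626 genes were *Fbln7* (0.97 in polyA and 0.96 in rRNA-depleted RNA), *Bambi* (0.96 and 0.96), *Fgfr2* (0.94 and 0.94), *Pm20d2* (0.91 and 0.93) and *Fbln5* (0.90 and 0.92). Of these, *Fbln7* and *Fbln5*, both fibulins of the extracellular matrix, had fitted log2 fold changes in rRNA-depleted RNA of 5.73 in sg5 and 3.86 in sg6, and of 1.43 and 1.23. *Fgfr2*, a fibroblast growth factor receptor, had 1.26 in sg5 and -1.76 in sg6, but -0.47 and -2.46 in polyA RNA, so its sign in sg5 turned between the kinds. By levels over the 9 libraries of each kind, which mostly reflects the step from WT to KO, the 5 most alike among 12922 genes were *Lcmt2*, *Apba1*, *Csnk1g3*, *Mpp5* and *Crybg1*, with r of at least 0.98 in each kind.

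The receptors of adiponectin differed little. *Adipor1* had 110 ± 7.61 CPM in WT, 163 ± 10.5 CPM in sg5 and 142 ± 17.0 CPM in sg6 in rRNA-depleted RNA, with log2 fold changes of 0.57 (edgeR quasi-likelihood adjusted p = 0.0352) and 0.37 (edgeR quasi-likelihood adjusted p = 0.248), both below the threshold of 1. *Adipor2* had 70.4 ± 4.68, 65.0 ± 8.51 and 60.4 ± 6.48 CPM. *Cdh13* rose in both clones.

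*Cdh13* had 2.86, 2.83 and 2.59 CPM in WT, 6.80, 7.76 and 5.79 CPM in sg5, and 9.23, 6.59 and 10.7 CPM in sg6 in rRNA-depleted RNA. Every KO library lay above every WT library. The log2 fold change was 1.29 with a standard error of 0.23 in sg5 (edgeR quasi-likelihood adjusted p = 0.00594) and 1.68 with a standard error of 0.24 in sg6 (edgeR quasi-likelihood adjusted p = 0.000959). In polyA RNA, with 23.1 ± 0.217 CPM in WT, the values were 1.44 and 1.96.

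Of 15 genes listed for adiponectin reception and signalling, 14 were tested in rRNA-depleted RNA, and in sg5 1 was called higher and 2 lower, beside 3.04% of genes called higher, and 1.86% of features and 4.31% of genes called lower. In sg6 1 was called higher and 1 lower, beside 2.16% of genes called higher, and 1.61% of features and 3.59% of genes called lower. The gene lower in both clones was *Ppargc1a*, the PGC-1α coactivator of mitochondrial genes, which had 41.9, 14.0 and 22.5 CPM in WT, 4.55, 0.749 and 0.965 CPM in sg5, and 6.99, 1.25 and 2.82 CPM in sg6. All KO libraries lay below all WT libraries, and replicate 1 was the highest of each line. Its log2 fold changes were -3.61 with a standard error of 0.68 and -2.83 with a standard error of 0.65 (edgeR quasi-likelihood adjusted p = 0.00808 and 0.0316). *Prkaa2*, the AMPK α2 catalytic subunit, was lower in sg5 with -1.70 (edgeR quasi-likelihood adjusted p = 0.00406) and had -0.57 in sg6 (edgeR quasi-likelihood adjusted p = 0.427). The call of *Ppargc1a* in sg6 ended without WT replicate 1 or 3, at -2.25 and -2.93, without sg6 replicate 2 or 3, at -2.39 and -2.64, by DESeq2, at -2.79, and with a minimum of 10 counts in every library, at -2.85. In polyA RNA *Ppargc1a* was called lower in both clones, also under all 17 alternatives. Over these alternatives it had -4.06 to -2.72 in sg5 and -5.32 to -4.99 in sg6. The median of the list in rRNA-depleted RNA was 0.07 in sg5 and 0.08 in sg6, near that of all genes.

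Assembly of adiponectin and its relatives needs hydroxylation of the collagen-like stem and retention in the endoplasmic reticulum, and 8 of 9 genes listed for these steps were tested. By edgeR 0 were called in rRNA-depleted RNA in either clone, with 3 in sg5 and 2 in sg6 at an unadjusted p below 0.05, and DESeq2 called 1 in sg5 and 0 in sg6. Over all genes edgeR called 3.04% higher and 4.31% lower in sg5, and 2.16% and 3.59% in sg6. At such shares few calls could fall among 8 genes, so nothing is read from these counts. The largest values were 1.06 for *Plod2*, a lysyl hydroxylase, in sg5 (edgeR quasi-likelihood adjusted p = 0.113) and 0.74 for *Ero1a*, an oxidase of the endoplasmic reticulum, in sg6 (edgeR quasi-likelihood adjusted p = 0.0523).

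Among 22 other genes with a C1q domain, 9 were tested in rRNA-depleted RNA. *Col8a2*, a short-chain collagen with a C1q-like end, had 10.3, 6.34 and 6.85 CPM in WT, 59.7, 157 and 113 CPM in sg5, and 32.3, 21.5 and 21.1 CPM in sg6, so that the 3 groups did not overlap. It was called higher in each clone, with fitted differences from WT of 3.82 (SE 0.34) and 1.68 (SE 0.31) on the log2 scale and adjusted p = 2.21e-05 and 0.00833 in edgeR's quasi-likelihood test, and higher in sg5 than in sg6 by 2.14 (edgeR quasi-likelihood adjusted p = 0.00506). *Emilin2*, an elastin-associated glycoprotein, was called lower in sg5 alone, with -1.12 in sg5 (edgeR quasi-likelihood adjusted p = 0.0276) and 0.10 in sg6, and its difference between clones of -1.22 was not called (edgeR quasi-likelihood adjusted p = 0.0694). That difference was called with the replicate number as a block, at -1.25 (edgeR quasi-likelihood adjusted p = 0.00352), by DESeq2, at -1.21, without the filter, at -1.21, and without sg5 replicate 2 or sg6 replicate 1, at -1.49 and -1.36. The call of *Emilin2* in sg5 ended without WT replicate 2, at -0.85, without WT replicate 1 or sg5 replicate 1 or 3, at -1.15, -0.87 and -1.07, and without replicate 1 of every line, at -0.95, and that of *Col8a2* in sg6 ended without WT replicate 3, at 1.58. The complement genes *C1qa*, *C1qb* and *C1qc* did not pass the filter in either kind. The median of the 9 was 0.03 in sg5 and -0.32 in sg6.

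Because *Adipoq* and *C1qtnf3* are also known from fat and cartilage, markers of both were read beside them. Of 14 adipocyte markers, 8 were tested in rRNA-depleted RNA, and 5 were called higher in sg5 and 3 in sg6, beside 3.04% and 2.16% of genes called higher. None was called lower in that kind. In the fit that blocks on replicate number 4 were called in sg6, *Fabp4* at 1.76 (edgeR quasi-likelihood adjusted p = 0.0497) being the addition. *Pparg*, the master transcription factor of fat cells, had log2 fold changes of 2.26 (SE 0.31) and 1.51 (SE 0.30), *Cebpa*, its partner, 1.51 and 1.25 (SE 0.22 each), and *Lpl*, lipoprotein lipase, 2.11 (SE 0.47) and 4.57 (SE 0.48), with adjusted p between 0.000102 and 0.0221 in edgeR's quasi-likelihood test. Some of these rRNA-depleted calls did not hold in every fit that left out 1 library, though the log2 fold changes stayed above 1. Without WT replicate 3 those of *Pparg* in sg6, *Cebpa* in sg6 and *Lpl* in sg5 ended, at 1.30, 1.12 and 1.87, without WT replicate 2 those of *Pparg* in sg6 and *Lpl* in sg5, at 1.42 and 2.05, and without sg5 replicate 2 that of *Lpl* in sg5, at 2.08. *Dgat2*, which makes triglyceride, was called in sg5 with 2.34, but not without WT replicate 2 (2.08), WT replicate 3 (2.17) or sg5 replicate 1 (1.43), by DESeq2 (2.37) or with a minimum of 10 counts in every library (2.31). *Fabp4*, the fatty acid carrier, was called in sg5 with 3.25 and had 12.3, 5.51 and 2.41 CPM in sg5 against 0.967, 1.06 and 0.160 in WT, so that replicate 1 was again the highest sg5 library. In polyA RNA 9 of the markers were tested, with 4 called higher and 1 lower in sg5, and 3 higher and 1 lower in sg6. *Pparg*, *Cebpa* and *Lpl* were called higher there in both clones, also under all 17 alternatives. Over these alternatives *Pparg* had 1.47 to 1.79 in sg5 and 1.15 to 1.48 in sg6. *Cebpa* had 1.21 to 1.35 and 1.13 to 1.32, and *Lpl* 1.39 to 2.06 and 2.76 to 2.94. Over all polyA genes 3.18% were called higher and 6.96% lower in sg5, and 3.64% and 7.54% in sg6. The marker called lower was *Cd36*, a fatty acid transporter, which had 6, 22 and 15 counts in WT, 1, 1 and 5 in sg5, and 0, 2 and 0 in sg6, with fitted log2 fold changes of -4.25 and -4.49. In rRNA-depleted RNA *Cd36* had 7, 12 and 6 counts in WT, 1, 0 and 0 in sg5, and 2, 0 and 0 in sg6, and was not tested. Some listed markers of mature fat were detected without a rise in both clones. *Lipe* had up to 2249 counts in a polyA library. In the fit with a replicate block it had -0.58 in sg5 and -0.62 in sg6 in polyA RNA, and 0.09 and -0.51 in rRNA-depleted RNA. *Cfd* had at most 2 counts in any polyA and 16 in any rRNA-depleted library. With the block it had -1.12 and -0.83 in rRNA-depleted RNA and was not called. Other markers of mature fat were at or near 0. *Retn* had 0 counts in all 18 libraries, and *Plin1*, *Cidec* and *Lep* had at most 4, 2 and 1 counts in any polyA library. The summed level of the list in rRNA-depleted RNA ran from 38.6 to 69.8 CPM in WT, 128 to 309 CPM in sg5 and 86.3 to 178 CPM in sg6, and its part in the level of *C1qtnf3* or *Adipoq* was not tested.

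Of 11 cartilage markers, 8 were tested in rRNA-depleted RNA, and their summed level ran from 793 to 1034 CPM in WT, 1261 to 2135 CPM in sg5 and 1018 to 1634 CPM in sg6. In sg5 the cartilage collagen *Col2a1* and the transcription factor *Sox9* were called higher, with 1.13 and 1.40, and the link protein *Hapln1* lower, with -2.88, beside 3.04% of genes called higher and 4.31% lower. In sg6 edgeR called 0, where 2.16% of genes were called higher and 3.59% lower, with 3 at an unadjusted p below 0.05, and DESeq2 called 2. With the replicate number as a block 3 were called in sg6, *Col2a1* higher at 1.07, and *Hapln1* and the cartilage collagen *Col9a1* lower at -1.15 and -1.30, beside 2.71% of genes called higher and 4.5% lower in that fit. The call of *Col2a1* in sg5 ended without sg5 replicate 2, at 0.67, without any 1 WT replicate, at 0.94 to 1.31, and in the fit of only sg5 and WT, at 1.12, and that of *Sox9* without sg5 replicate 2, at 0.96, or WT replicate 2 or 3, at 1.41 and 1.43. In polyA RNA 10 were tested, and *Col2a1* and *Sox9* were not called in sg5, at 0.50 and 0.35. *Prg4*, lubricin of the joint surface, was called higher there in both clones, at 2.10 and 2.52, against 0.12 and -0.27 in rRNA-depleted RNA. *Hapln1* was called lower in sg5 in this kind too, at -2.52. For sg6 the other calls were *Col2a1* higher, at 1.11, and *Col9a1* lower, at -1.75. Of 17 alternatives, 14 kept this *Hapln1* call and 11 that of *Col2a1*. Shares of all polyA genes called higher and lower stood at 3.18% and 6.96% for sg5, and at 3.64% and 7.54% for sg6.

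Of 7 macrophage markers, 3 were tested in rRNA-depleted RNA, with summed levels of 14.2 to 29.2 CPM in WT, 6.87 to 8.45 CPM in sg5 and 4.08 to 11.5 CPM in sg6, mostly *Lyz2*, which had 17.4 ± 7.58, 5.76 ± 0.903 and 5.24 ± 3.56 CPM. *Lyz2*, lysozyme, was called lower in sg6, with -1.73 (edgeR quasi-likelihood adjusted p = 0.0460), and had -1.59 in sg5 (edgeR quasi-likelihood adjusted p = 0.0555). The call in sg6 ended with RLE factors, at -1.69, with a minimum of 10 counts in every library, at -1.75, and in the fits without WT replicate 1 or 3, sg5 replicate 2 or 3, or sg6 replicate 2 or 3, at -1.87 to -1.26. Other settings called it in sg5 too, among them DESeq2, at -1.56. In polyA RNA *Lyz2* had -2.12 and -1.54. Of 5 macrophage markers tested there 3 were called lower in sg5 and 1 in sg6, beside 6.96% and 7.54% of genes called lower.

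Of 5 endothelial markers *Tek*, the angiopoietin receptor, alone was tested in rRNA-depleted RNA, with summed levels of 2.76 to 4.29 CPM in WT, 3.62 to 13.7 CPM in sg5 and 7.48 to 9.72 CPM in sg6, and *Pecam1* was at most 0.445 CPM in any library. *Tek* was called higher in sg5, with 1.75 (edgeR quasi-likelihood adjusted p = 0.0352), and had 1.60 in sg6 (edgeR quasi-likelihood adjusted p = 0.0671), against 3.54 and 3.24 in polyA RNA. The call in sg5 ended in the fit of only sg5 and WT, at 1.75, and without any 1 WT replicate or sg5 replicate 2 or 3, at 1.42 to 2.04, while DESeq2 called it in sg6 as well, at 1.63. In polyA RNA 4 endothelial markers were tested, with 1 called higher and 1 lower in sg5, and 1 higher and 2 lower in sg6. Over all polyA genes 3.18% were called higher and 6.96% lower in sg5, and 3.64% and 7.54% in sg6. *Pecam1* had -1.37 and -1.22 in polyA RNA. Of 9 mesenchymal markers 8 were tested, and *Eng*, a TGF-β co-receptor, had log2 fold changes of 2.07 in sg5 (edgeR quasi-likelihood adjusted p = 0.00228) and 1.32 in sg6 (edgeR quasi-likelihood adjusted p = 0.045). The latter call ended without any 1 replicate of WT or sg6, at 1.22 to 1.46, without replicate 1 of every line, at 1.32, and with a minimum of 10 counts in every library, at 1.29. With the replicate number as a block *Ly6a*, the Sca-1 surface antigen, was also called in sg6, at 1.09 (edgeR quasi-likelihood adjusted p = 0.0466) but not without the block (edgeR quasi-likelihood adjusted p = 0.0525). The part of any of these markers in the levels of the C1q/TNF-related genes was not tested.

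Around *C1qtnf3*, 18 annotated genes lie within 500 kb, of which 9 were tested in rRNA-depleted RNA and 10 in polyA RNA. The next gene on the same strand, *Amacr*, an enzyme that racemizes branched-chain fatty acids, begins 1605 bases after the end of *C1qtnf3*. In rRNA-depleted RNA it had 34.4, 24.4 and 25.5 CPM in WT, 81.3, 51.9 and 45.3 CPM in sg5, and 122, 56.7 and 68.9 CPM in sg6, all KO libraries above all WT libraries, and it was the only neighbour called there. Its log2 fold change was 1.08 with a standard error of 0.28 in sg5 (edgeR quasi-likelihood adjusted p = 0.0494) and 1.55 with a standard error of 0.28 in sg6 (edgeR quasi-likelihood adjusted p = 0.00738). In polyA RNA it had 0.40 in sg5 and 1.25 in sg6, both with a standard error of 0.19. The call in sg5 ended without WT replicate 1, 2 or 3, at 1.31, 1.01 and 1.0, without sg5 replicate 1 or 2, at 0.82 and 1.22, without sg6 replicate 3, at 1.11, with a minimum of 10 counts in every library, at 1.04, and without replicate 1 of every line, at 0.99, and that in sg6 without WT replicate 3, at 1.48. Whether reads that run past the end of *C1qtnf3* add to *Amacr* was not tested.

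Upstream, *Rai14*, which encodes an actin-binding protein and starts 238 kb before *C1qtnf3*, had -0.68 in sg5 and 0.08 in sg6 in rRNA-depleted RNA. Downstream, *Adamts12*, a matrix protease gene that starts 112 kb after, had 0.05 and -0.12, and -0.64 and -0.46 in polyA RNA. *Rxfp3*, a relaxin-family peptide receptor gene between *Amacr* and *Adamts12*, was low, at 0.0870 ± 0.0574 CPM in WT, 0.135 ± 0.0558 CPM in sg5 and 0.371 ± 0.0154 CPM in sg6 in polyA RNA, with fitted log2 fold changes of 0.87 and 2.33.

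**Figure D5:**
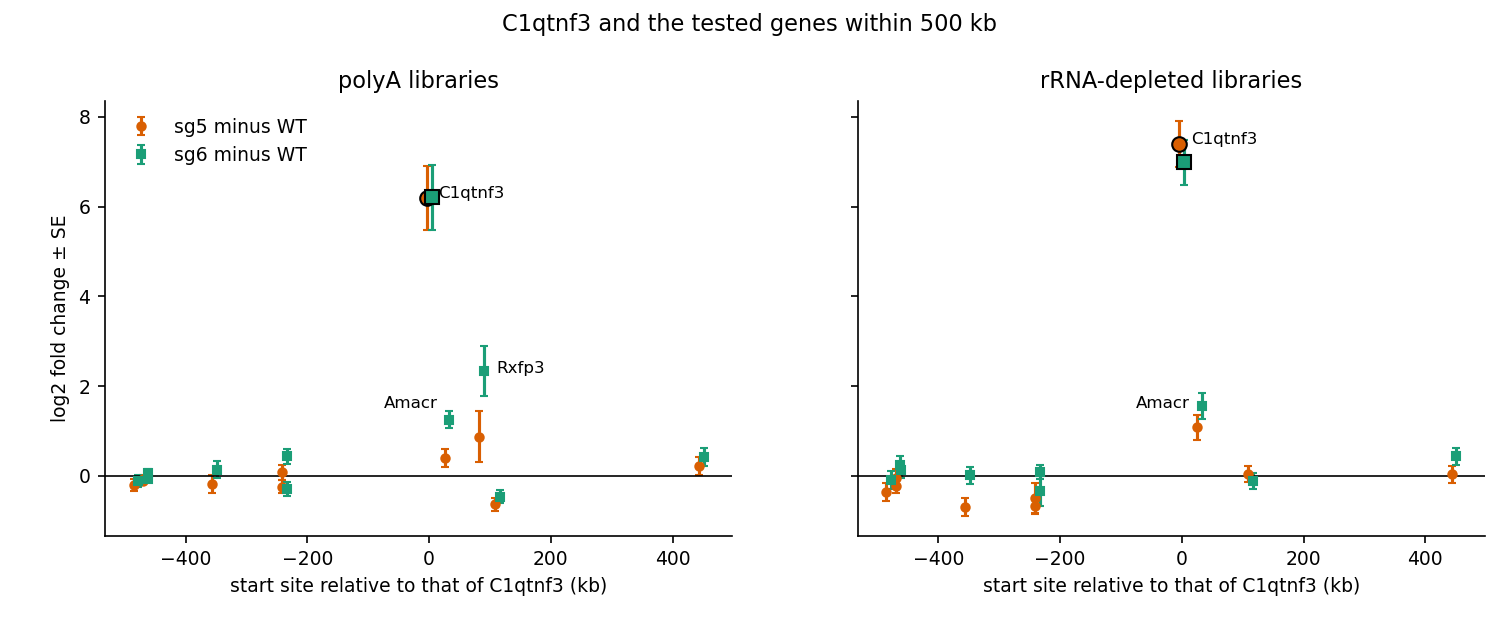
Fitted log2 fold change with its standard error, in sg5 (circles) and sg6 (squares) against WT, of *C1qtnf3* (outlined) and of the tested genes within 500 kb, by the distance of their start site from that of *C1qtnf3* in kb. *C1qtnf3* stands at 6.19 to 7.40, *Amacr* at 0.40 to 1.55, and in rRNA-depleted RNA the other neighbours lie between -0.70 and 0.43.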

How the data were processed

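RNA was sequenced from C3H/10T1/2 *Atrx* WT cells and from KO clones sg5 and sg6, in 9 polyA and 9 rRNA-depleted libraries. For the polyA table, the authors trimmed reads with Rfastp, quantified mm10 transcripts with Salmon and summed them by gene with tximport, and the deposited estimated counts (expected counts) are whole numbers that were not normalized. For the rRNA-depleted table, the authors aligned reads with STAR, keeping up to 100 alignments per read, and TElocal counted genes and transposable-element loci, deposited as raw counts. The strand setting is not given in the sources used here. Reads with several alignments are shared between loci. *C1qtnf5* and *Mfrp* overlap on the same strand, so a read with a single alignment there can fit both genes. How such reads were assigned was not tested.

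From these tables, TMM factors and CPM were computed with edgeR 4.0.16 in R 4.3.3, within each kind. Features were kept by edgeR's expression filter (minimum count 10, minimum total 15), and a quasi-likelihood test over the 3 lines gave log2 fold changes with Benjamini-Hochberg adjusted p-values over all features tested. A call needed a log2 fold change beyond 1 and an adjusted p below 0.05. Depth ran from 20135336 to 235346363 counts per library, and 3 counts per library were taken as the limit that a count of 0 allows, for counting error only. The 9 members, the gene lists and the tests were chosen with earlier results of these data known. Text names all members, list genes called in the same direction in both clones in either kind, the adiponectin receptors, the genes most like *C1qtnf3*, those within 500 kb of it, and *Atrx*. *Prkaa2*, *Emilin2*, *Col8a1*, *Fabp4*, *Dgat2*, *Lipe*, *Cfd*, *Col2a1*, *Sox9*, *Hapln1*, *Thy1*, *Nt5e*, *Plod2*, *Col9a1*, *Matn3*, *Ly6a*, *Ero1a* and the undetected markers were named after their values were seen. Alternatives were a replicate block, DESeq2 1.42.0, RLE factors, a stricter filter and none, fits of only the lines compared, of genes alone and without single libraries, and, chosen after seeing the data, without replicate 1 of every line and thinned polyA counts. Libraries of different lines with the same number in the labels were checked for shared deviations from the line means. Every same-numbered pair correlated above 0.1 for sg5 with sg6, with Pearson's r of 0.277 to 0.373 in polyA and 0.174 to 0.638 in rRNA-depleted RNA, and for WT with sg6 in rRNA-depleted RNA, with 0.114 to 0.544, so the numbers were taken to pair the libraries in these comparisons, from the data alone. Some pairs with different numbers correlated better, up to 0.555 for sg5 replicate 3 with sg6 replicate 2 in rRNA-depleted RNA, so this pairing is uncertain. The block fit held all 3 lines, also WT and sg5, which were not taken as paired. The fits were tested on simulated data. No deposited column of the authors' own comparisons was used.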

Additional observations from a re-analysis of the deposited data

Results flagged for a closer look

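The clones differed from each other in 5 list genes by edgeR's quasi-likelihood test of sg5 minus sg6 without a block, with n = 3 libraries per clone and Benjamini-Hochberg adjustment. The short-chain collagens *Col8a1* and *Col8a2* were higher in sg5 in polyA RNA, by 2.24 (adjusted p = 0.0178) and 1.70 (adjusted p = 0.00595) on the log2 scale, and *Col8a2* also in rRNA-depleted RNA, by 2.14 (adjusted p = 0.00506). In rRNA-depleted RNA *Lpl* and *Hapln1* were lower in sg5, with -2.46 (adjusted p = 0.0173) and -1.76 (adjusted p = 0.0168). *Thy1* was lower in sg5 in both kinds, with -8.76 (adjusted p = 3.29e-08) and -8.25 (adjusted p = 3.77e-07), and in polyA RNA all sg5 libraries lay below and all sg6 libraries above WT, with -1.73 for sg5 minus WT and 7.03 for sg6 minus WT. Without sg5 replicate 1, sg5 replicate 2 or sg6 replicate 2 the difference of *Col8a1* was not called (2.01, 2.21 and 2.12), nor without sg5 replicate 2 those of *Lpl* and *Hapln1* (-2.53 and -1.74). In the fit of only the clones those of *Lpl* and *Hapln1* were not called either (-2.48, adjusted p = 0.0792, and -1.78, adjusted p = 0.109), nor that of *Hapln1* without replicate 1 of every line (-1.11). With the replicate number as a block, besides *Adipoq* and *Emilin2* edgeR also called between the clones *Fabp4* (1.5), *Ppargc1a* (1.86), *Matn3* (1.24) and *Lpl* (-1.08) in polyA RNA, and *Col8a1* (1.93), *Col9a1* (1.5), *Plod2* (1.30), *Dgat2* (1.24) and *Matn3* (1.17) in rRNA-depleted RNA.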

How the results depend on the processing

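The log2 fold change of *C1qtnf3* in rRNA-depleted RNA was called in all 9 fits that left out 1 library, from 7.13 to 7.86 in sg5 and from 6.27 to 7.44 in sg6, and under all 7 other settings, from 7.34 to 7.55 and from 6.89 to 7.02. In the fit with a replicate block, members called in rRNA-depleted RNA were 2 in each clone (*C1qtnf3* and *C1qtnf5*, the latter at 1.05 and 1.35), and in polyA RNA 1 member, *Adipoq* at 2.64, was called between the clones. Same-numbered WT and clone libraries correlated in their deviations with r as low as 0.0257 (sg5) and 0.0983 (sg6) in polyA and -0.229 (sg5) in rRNA-depleted RNA, so the numbers were not taken to pair these. Where they were, the block ended no call of a list gene, and in sg6 against WT it added *Col8a1* (-2.01) to the list genes given with it above. As a hint from the data, 9 of 9 polyA and 6 of 9 rRNA-depleted libraries correlated best with their own number.

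In rRNA-depleted RNA, 2 members were also called in sg5 without the filter on low counts (*C1qtnf3* and *Adipoq*), and 2 in sg6 by DESeq2, without the filter and without WT replicate 1 (*C1qtnf3* and *C1qtnf5*). Over fits leaving out 1 library the count in sg6 was 1 to 2, and between the clones it was 0 throughout. Without replicate 1 of every line, an alternative chosen after seeing the data, 2 members were called in each clone, and 1, *C1qtnf3*, between the clones. *Adipoq* in polyA sg5 passed with the replicate block (2.87), by DESeq2 (3.61), without the filter (3.49) and without sg5 replicate 2 (3.91) or 3 (3.90). The cause of these changes was not tested. Thinned polyA counts left *Adipoq* below the filter. No named gene changed direction with a call. Low counts limit *Adipoq*, *C1qtnf2*, *C1qtnf4* and *C1qtnf7* at this depth.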
